A study of Mus musculus with 19 samples.

Results

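Germ cell genes in the embryonic hindgut are described here through 9 genes, Dppa3, Dppa5a, Pou5f1, Nanog, Tfap2c, Nanos3, Dnd1, Dazl and Ddx4, out of 24062 genes in the deposited count table. The members were taken by symbol and all 9 had a row. They had been selected on their read counts in these hindgut libraries, high in the young ages, so their hindgut levels are given as a description, with no test.

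The study followed colon stem cells that carry the transcription factor Ascl2 and set them beside developing hindgut. RNA was sequenced from 8 hindgut and 7 adult colon libraries, and droplet single-cell sequencing covered 1 adult library; the 3 chromatin libraries were not analysed here. Hindgut cells came from wild-type CD1 embryos of 4 ages, namely embryonic day 11 (E11), 12 (E12), 14 (E14) or 16 (E16), and each age had 2 libraries. The cells were released with trypsin and sorted for Epcam, a surface adhesion protein of epithelium that primordial germ cells are also known to carry. The labels call the hindgut libraries biological replicates without giving the number of embryos or litters in each, so every p-value measures only the spread between these libraries. The adult mice had a mixed C57BL/6 129/Sv background. Wild-type stem cells (3 libraries) carried Ascl2(mCh), which marks Ascl2 cells with mCherry, and Lgr5Dtr-Egfp, which puts the diphtheria toxin receptor and GFP under Lgr5 control. Regenerating cells (2 libraries) carried the same alleles and came from mice injected 4 times with diphtheria toxin at 50 ug/kg to kill Lgr5 cells. Ascl2 KO cells (2 libraries) were Ascl2Fl/Fl with Lgr5EGFP-Cre, so the deletion takes place in cells that use Lgr5, after 2 mg of tamoxifen on days 1 and 2 and 1 mg on day 3. The single-cell library held regenerating cells on day 8 that were positive for mCherry and negative for GFP.

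In the mouse embryo, primordial germ cells arise at the base of the allantois, enter the hindgut epithelium, and leave it through the dorsal mesentery for the genital ridges. Through this journey they keep parts of the pluripotency network, and around their arrival in the gonad they turn on RNA-binding proteins of the later germ line. Dppa3 (also called Stella) and Dppa5a are early germ cell and pluripotency genes; Pou5f1 (Oct4) and Nanog are transcription factors of pluripotent cells; Tfap2c (AP-2 gamma) is a transcription factor of germ cell specification that squamous and other ectodermal epithelia also use. Nanos3 and Dnd1 are RNA-binding proteins that keep migrating germ cells alive, and Dazl and Ddx4 (mouse Vasa) are RNA-binding proteins of gonadal germ cells.

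All 9 are protein-coding genes; positions are those of GRCm38. Dppa3 (chr6:122626424-122630271) and Nanog (chr6:122707489-122714633) are 77218 bases apart. Pou5f1 (chr17:35506032-35510777) and Dazl (chr17:50279393-50293620) share chromosome 17. Tfap2c lies at chr2:172545678-172558622, Nanos3 at chr8:84173733-84176552, Dppa5a at chr9:78367052-78368199 and Ddx4 at chr13:112598333-112652633. Levels are given as CPM, counts scaled to a common library size after correction by the trimmed mean of M-values (TMM) and with no correction for gene length, so levels are compared within a gene and not between genes. By name, the annotation holds 5 copies of Pou5f1, 2 each of Dppa5a and Nanog, and 1 each of Dppa3 and Dnd1, none with a row in the count table, so reads shared with these copies make the levels of those 5 genes less certain.

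Promoter windows from RefSeq (GRCm38.p6) were taken for 5 of the 9 members: Ddx4, Dazl, Nanog, Nanos3 and Pou5f1. Dppa3, Dppa5a and Tfap2c had no entry in the promoter table, and Dnd1 was not looked up. The 250 bases before the start that the table uses are printed 5′ to 3′ on the gene's strand for both late genes, Ddx4 and Dazl, and for both pluripotency factors, because the pairs differ in CpG content and because Dazl and Ddx4 were the members with the highest E12 mean relative to E11. For Ddx4 that start lies inside the outer bounds of the gene given above. Nanog and Pou5f1 each have a second start in the table, and the window of the first is printed. Capitals mark a match to a searched motif.
Ddx4, chr13:112652311-112652560, minus strand: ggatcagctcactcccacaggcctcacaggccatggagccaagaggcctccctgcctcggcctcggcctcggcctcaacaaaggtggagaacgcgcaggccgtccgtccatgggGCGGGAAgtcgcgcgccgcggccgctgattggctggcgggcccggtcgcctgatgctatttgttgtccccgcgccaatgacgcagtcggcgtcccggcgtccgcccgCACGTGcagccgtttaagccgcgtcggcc
Dazl, chr17:50293621-50293870, minus strand: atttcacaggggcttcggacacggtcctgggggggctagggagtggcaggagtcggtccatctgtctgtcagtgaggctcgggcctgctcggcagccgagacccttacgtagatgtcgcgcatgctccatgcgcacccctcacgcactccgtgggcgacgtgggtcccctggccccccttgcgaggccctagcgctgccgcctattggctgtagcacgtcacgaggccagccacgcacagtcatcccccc
Nanog, chr6:122707239-122707488, plus strand: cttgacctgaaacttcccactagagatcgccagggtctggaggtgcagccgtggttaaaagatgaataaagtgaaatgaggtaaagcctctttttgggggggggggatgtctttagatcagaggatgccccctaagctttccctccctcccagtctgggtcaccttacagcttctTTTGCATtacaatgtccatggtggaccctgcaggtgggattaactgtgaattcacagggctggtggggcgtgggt
Pou5f1, chr17:35505782-35506031, plus strand: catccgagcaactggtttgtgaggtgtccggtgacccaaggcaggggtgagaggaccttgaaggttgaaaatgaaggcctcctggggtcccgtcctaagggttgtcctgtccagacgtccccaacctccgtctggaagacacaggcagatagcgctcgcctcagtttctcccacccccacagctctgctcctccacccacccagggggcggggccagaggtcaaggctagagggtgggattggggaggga
The Ddx4 window holds 31 CpG dinucleotides, more than 94.8% of the 32851 promoters compared, and the Dazl window holds 20, more than 82.1% of them. Promoters of such germ line genes are known to be held silent by DNA methylation in somatic cells. Pou5f1 holds 8 CpG and Nanog 3, around the median of 6. The windows of their second starts hold 6 and 2. Motifs were searched on both strands, and no matches overlapped. The E-box CACGTG, at -29 in Ddx4, occurs in 6.02% of all promoters, and the E2F motif GCGGGAA, at -136 in Ddx4, in 3.82%. The octamer ATGCAAA, which POU factors such as Oct4 bind, stands at -75 in Nanog in the reverse direction and occurs in 4.12% of promoters. Counted from the second Nanog start, the same match is at -151. The AP-2 motif GCCNNNGGC occurs in 13.7% and was found at -221 in Nanos3. Dazl and Pou5f1 had no match in this window. A match describes letters and is no evidence of binding.

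Library totals ran from 13826958 to 30583908 counts in genes. Epcam lay between 911 and 1428 CPM in all 8 hindgut libraries, and 14 hindgut epithelial markers summed to 3875 to 7239.9 CPM; Sox17, an early endoderm factor, was at or near 0 in the 6 libraries up to E14. Both E16 libraries stood apart in their other cells: 9 mesenchyme markers summed to 8083 and 6736 CPM against 22.6 to 162 at the younger ages, and 7 macrophage markers to 1471 and 1560.4 against 1.80 to 55.5. E12 replicate 1 stood apart from E12 replicate 2 in each of the 9 genes, and E12 values are therefore given for each library. In the adult set, Ascl2 itself read 104 to 151 CPM in wild type, 57.0 and 85.7 in regenerating cells and 53.8 and 59.2 in the KO.

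Reads of all 9 genes were present in all 4 libraries of E11 and E12. Values of an age are given as a pair, replicate 1 and then replicate 2. Summed over the 9, they came to 70.0 and 157 CPM in the E11 pair and to 585 and 61.9 CPM in the E12 pair, against 16 and 18.7 in the E14 pair and 1.91 and 4.36 in the E16 pair. Tfap2c made up most of the E14 sum. In bulk libraries such as these, fewer germ cells and less RNA per cell cannot be told apart.

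**Figure D1:**
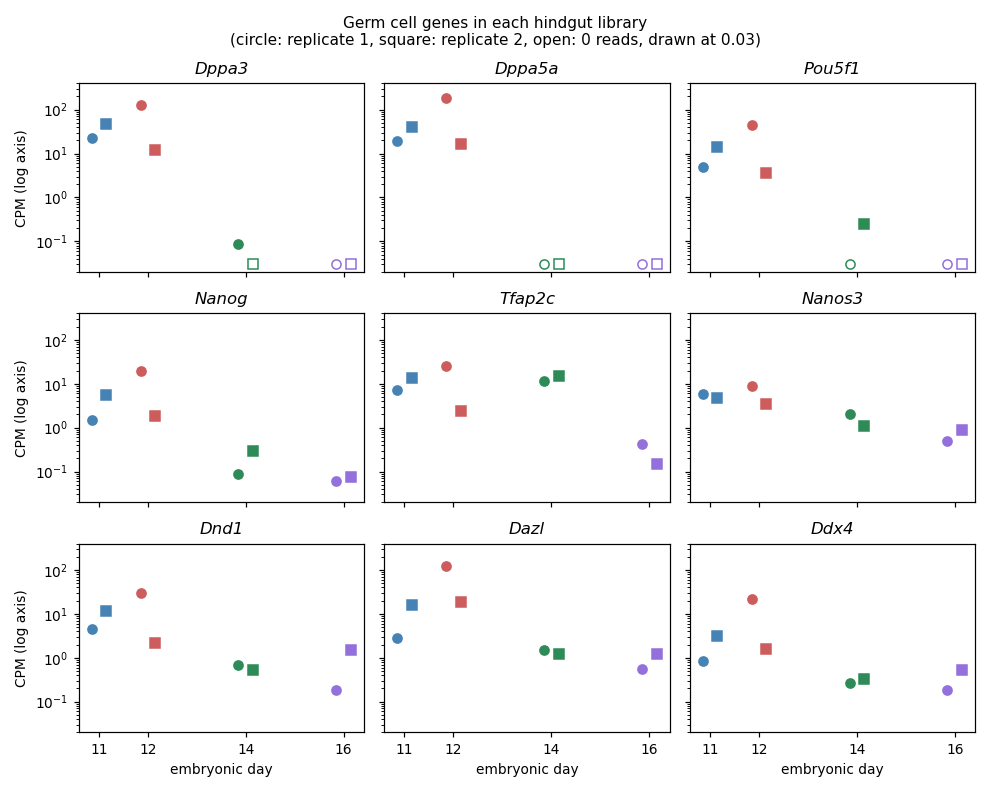
CPM of each of the 9 genes (log axis) against embryonic day, with 1 point per library; circles are replicate 1, squares replicate 2, and open symbols mark 0 reads, drawn at 0.03. Dppa3, Dppa5a, Pou5f1 and Nanog sit below 0.3 CPM from E14 on, whereas Tfap2c stays at 11.3 and 15 CPM at E14.

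Among the early germ cell genes, Dppa3 read 22.8 and 46.0 CPM in the E11 pair, 131 and 12.1 in the E12 pair, 0.0871 and 0 in the E14 pair, and 0 in both E16 libraries. Its E11 mean was 34.4 ± 16.4 CPM (SD, n = 2), at least 339-fold higher than at E16, where a limit of 3 counts over the group stands in for 0. The 2 Dppa3 reads at E14 put the E11 level at 830.2 times that of E14, with a 95% counting interval of 229.5 to 6859.9. Intervals and limits of this kind cover counting error only, since reads without molecular identifiers are not independent molecules.

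Dppa5a had reads only at E11 and E12: 19.3 and 40.9 CPM in the E11 pair, 182 and 16.7 in the E12 pair, and no read in any of the 4 libraries of E14 and E16. Its E11 mean of 30.1 ± 15.3 CPM (SD, n = 2) was at least 472-fold higher than E14 and at least 296-fold higher than E16; the smaller bound at E16 comes with the smaller libraries there.

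The pluripotency factors followed the same course. Pou5f1 read 5.07 and 14.5 CPM in the E11 pair, 45.8 and 3.56 in the E12 pair, 0 and 0.249 in the E14 pair, and 0 in both libraries at E16. Its E11 mean of 9.81 ± 6.70 CPM (SD, n = 2) was 78.8 times that of E14 and at least 96.5-fold higher than E16. Nanog read 1.47 and 5.52 CPM in the E11 pair, 19.9 and 1.85 in the E12 pair, 0.0871 and 0.290 in the E14 pair, and 0.0616 and 0.0752 in the E16 pair, where each library held 1 read. The pooled E11 to E16 ratio of Nanog was 53.7, with a 95% counting interval of 14.7 to 447. Pou5f1 was thus undetected in 3 of the 4 older libraries, and Nanog was at trace counts in all 4.

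Tfap2c departed from the rest. It read 7.21 and 13.8 CPM in the E11 pair, 25.1 and 2.34 in the E12 pair, 11.3 and 15 in the E14 pair, and 0.431 and 0.150 in the E16 pair. The E14 mean of 13.2 ± 2.61 CPM overlapped that of E11, 10.5 ± 4.68 (SD, n = 2 each; E11 over E14, 0.799), and only E16 lay below every younger library. At E14, where Dppa3, Dppa5a, Pou5f1 and Nanog were at or near 0, the squamous epithelial genes Trp63 and Krt5 were high: Trp63, a master regulator of stratified epithelium, read 90.6 and 144 CPM and Krt5, a basal keratin, 38.2 and 74.5. Both were at 0.828 CPM or less in each E16 library. Trp63 and Krt5 were chosen after their values were seen, and their part in the Tfap2c level was not tested. The related Tfap2a read 10.9 and 12 CPM in the E11 pair, 1.56 and 0.523 in the E12 pair, 3.31 and 3.44 in the E14 pair, and at most 0.123 at E16. Tfap2b, another AP-2 factor, read 12.9 and 44.4 CPM at E11 and 0.0616 or less in each library of E14 and E16.

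The survival factors kept some reads at every age. Dnd1 overlaps Wdr55 in the annotation, and no source used here states that strand was counted. Reads in the stretch that both genes share may therefore not be told apart, and their part in the Dnd1 level was not tested. Wdr55 read between 28.2 and 62.6 CPM in the hindgut, with 57.0 and 52.9 in the E12 pair. Nanos3 read 5.97 and 4.84 CPM in the E11 pair, 8.85 and 3.42 in the E12 pair, 2.05 and 1.08 in the E14 pair, and 0.493 and 0.903 in the E16 pair. Its E11 level of 5.41 ± 0.804 CPM (SD, n = 2) was 7.75 times that at E16, and E11 and E12 overlapped. Dnd1 read 4.58 and 11.7 CPM in the E11 pair, 29.6 and 2.13 in the E12 pair, 0.697 and 0.539 in the E14 pair, and 0.185 and 1.5 in the E16 pair. Its E11 mean, 8.12 ± 5.0 CPM (SD, n = 2), was 9.61 times that at E16, where most of its 23 reads came from replicate 2. Among the relatives of Nanos3, Nanos2 was at 0 in all 4 libraries of E11 and E12, and Nanos1 read 0.162 to 4.06 CPM over the 8 libraries.

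Dazl and Ddx4, the late germ cell genes, had the highest E12 means relative to E11 among the 9, at 7.44 and 5.93 times. Dazl read 2.82 and 15.9 CPM in the E11 pair, 121 and 18.2 in the E12 pair, 1.52 and 1.20 in the E14 pair, and 0.555 and 1.20 in the E16 pair. E12 replicate 2, although low in the other members, was above both E11 libraries for Dazl and for no other member. The E11 mean of Dazl was 10.7 times that of E16, and it never reached 0 in the hindgut. Ddx4 read 0.827 and 3.21 CPM in the E11 pair, 22.4 and 1.57 in the E12 pair, 0.261 and 0.332 in the E14 pair, and 0.185 and 0.527 in the E16 pair. Its E11 mean of 2.02 ± 1.69 CPM (SD, n = 2) was 5.68 times that at E16. Boll, the third gene of the Dazl family, read 1.02 CPM at most in any hindgut library.

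By means, E12 was above E11 in each of the 9 genes, from 1.13 times for Nanos3 to 7.44 times for Dazl, but, Dazl aside, this order rested on E12 replicate 1. That library was above both E11 libraries in all 9 genes. E12 replicate 2 was below both E11 libraries in 6 of the 9, between them for Nanog and Ddx4, and above both for Dazl alone. Except for Tfap2c, every library of E11 and E12 was above every library of E14 and E16, in 8 of the 9 genes. Since the 9 were selected as high in the young ages, this separation is a description. The share of all genes that show it was not counted.

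At E12 the replicates differed by a factor of 10.7 to 14.3 in 7 of the 9 genes. E12 replicate 1 over replicate 2 was 10.8 for Dppa3, 10.9 for Dppa5a, 12.9 for Pou5f1, 10.7 for Nanog and 10.7 for Tfap2c. It was 13.9 for Dnd1 and 14.3 for Ddx4, and smaller for Dazl at 6.65 and for Nanos3 at 2.59. All 9 thus differed at least 2-fold in that direction, a size that 10.9% of the 16481 genes tested reached. At E11 the spread ran the other way in replicate number and was smaller: replicate 2 over replicate 1 was 2.02 for Dppa3, 2.12 for Dppa5a, 2.87 for Pou5f1, 3.77 for Nanog, 3.89 for Ddx4 and 5.66 for Dazl. It was 2.54 for Dnd1, 1.92 for Tfap2c and 0.81 for Nanos3, so 7 of 9 reached 2-fold, against 10.8% of all genes. Replicate numbers carry no order.

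**Figure D2:**
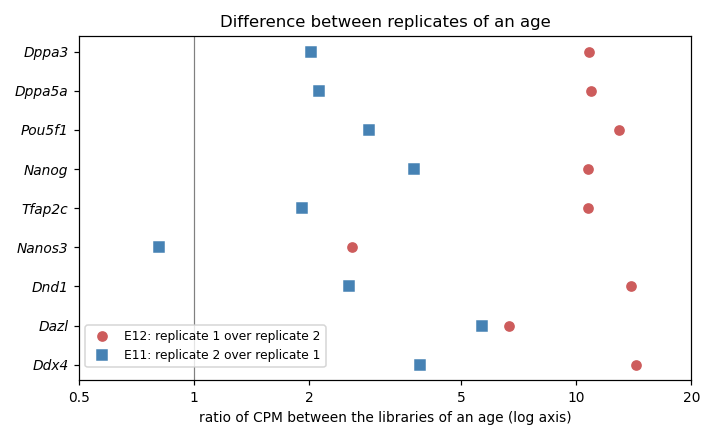
Ratio of CPM between the libraries of an age for each of the 9 genes (log axis; circles E12 replicate 1 over 2, squares E11 replicate 2 over 1; the line marks equal levels). Dppa3, Dppa5a, Pou5f1, Nanog and Tfap2c cluster from 10.7 to 12.9 at E12, with Dazl at 6.65 and Nanos3 at 2.59 to their left.

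Many, though not all, germ cell genes outside the 9 were also higher in E12 replicate 1. Of 69 other germ cell genes listed, all were in the table and 58 passed the filter on low counts. Of these 58, 36 were at least 2-fold higher in E12 replicate 1 and 2 at least 2-fold lower, with a median difference of 1.58 on the log2 CPM scale against 0 for all genes tested, of which 1792 of 16481 were higher and 1092 lower by that size. In the pluripotency network it was 11 of 14 genes, with a median of 2.73. Among the meiosis genes 11 of 19 were higher (median 1.47), among the piRNA and germ line genes 10 of 17 (median 1.16), and among specification and surface genes 4 of 8 (median 0.54). Between the E11 libraries, 17 of the 58 were at least 2-fold higher in replicate 2 and 7 lower, with a median of 0.229.

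**Figure D3:**
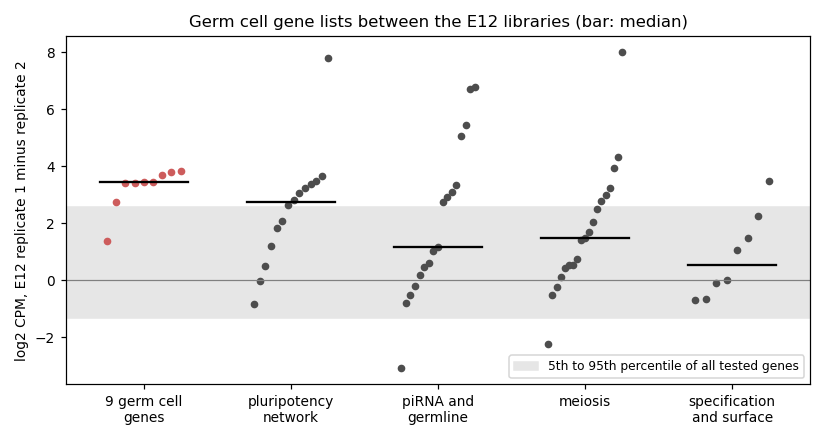
Difference in log2 CPM between E12 replicate 1 and replicate 2 for each gene of 5 lists (1 point per gene, bars at the medians, grey band the 5th to 95th percentile of all tested genes, -1.33 to 2.57). The 9 germ cell genes centre on 3.43 and the pluripotency network on 2.73, while specification and surface genes centre on 0.54.

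Markers of other cells differed between the same libraries. Of 6 endothelial markers, 5 were detected in E12 replicate 1 (24.5 CPM summed) and 1 in replicate 2 (0.837), and the E11 libraries had 2.18 and 15.6. Pecam1, an adhesion molecule of endothelium that germ cells also express, made up most of these sums, at 22.1 and 0.837 CPM in the E12 pair and at 1.77 and 11.6 in the E11 pair. Emcn (1.20 and 0 in the E12 pair, 0 and 1.56 in the E11 pair) and Kdr (1.12 and 0 in the E12 pair, 0 and 0.519 in the E11 pair) were highest in the same libraries. Tek read 0.338 and 1.88 CPM at E11 and 0 at E12, and Cdh5 and Tie1 were at 0.109 CPM or less in these 4 libraries. Embryonic globins and other red cell markers summed to 313 and 22.0 CPM in the E12 pair and to 354 and 174 in the E11 pair. Mesenchyme markers summed to 117 and 22.6 CPM in the E12 pair, with Pdgfra at 0 in replicate 2, and to 62.9 and 77.4 in the E11 pair. At E14, with germ cell genes low, mesenchyme markers summed to 142 and 162 CPM. Of 12 markers of gonadal somatic cells, 9 were detected in E12 replicate 1 and 6 in replicate 2, with sums of 33.6 and 23.2 CPM against 23.2 and 25.2 in the E11 pair, 39.9 and 51.5 in the E14 pair and 88.0 and 79.5 in the E16 pair. The defining gonadal genes Nr5a1 and Lhx9 were at 0 in 3 of these 4 young libraries and read 0.508 and 0.907 CPM in E12 replicate 1. Cyp17a1 and Cyp11a1 were at 0 in the same 3 libraries and read 0.762 and 0.218 CPM in E12 replicate 1. Amh and Foxl2 were at 0 there. Wt1 read 4.54 and 2.47 CPM in the E12 pair, and Gata4 went the other way at 0.544 and 0.941. Inha, at 11.9 to 14.4 CPM, was the largest part of the sums in the 4 young libraries. Cyp11a1 read 21.2 to 40.3 CPM at E14 and E16. Nephric duct markers, which mark the neighbouring urogenital epithelium, summed to 654 and 552 CPM in the E11 pair, 126 and 110.3 in the E12 pair, 42.2 and 39.1 in the E14 pair, and 72.3 and 81.0 in the E16 pair. E11 replicate 2, the higher in germ cell genes, also had more Krt5 (42.1 against 0.0376 CPM) and Trp63 (39.5 against 3.76). The part of these other cells in the germ cell values was not tested.

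**Figure D4:**
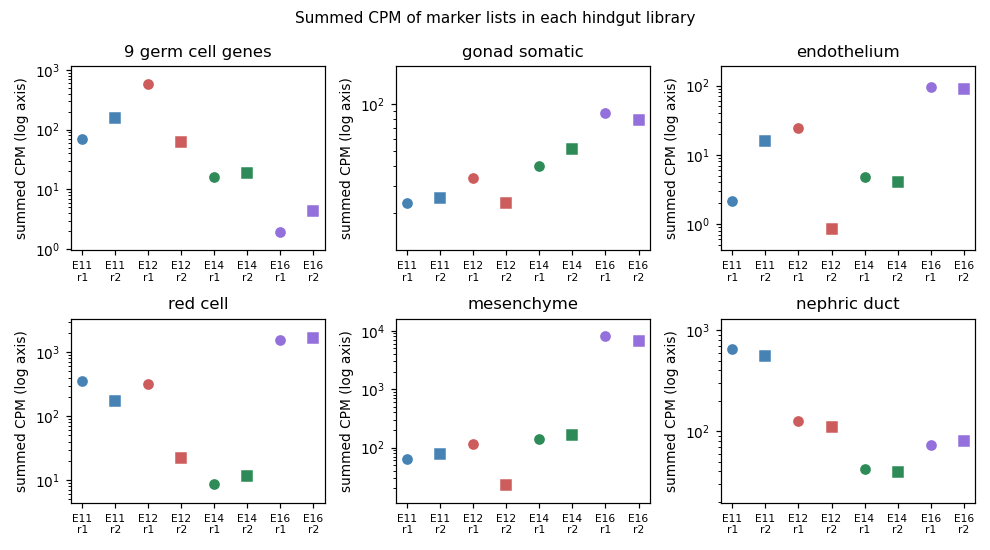
Summed CPM of 6 marker lists in each hindgut library (log axes; circles replicate 1, squares replicate 2, r1 and r2 on the axis). The 9 germ cell genes, endothelium and red cell markers are all higher in E12 replicate 1 than in replicate 2, and gonad somatic markers lie between 23.2 and 33.6 CPM over the 4 libraries of E11 and E12.

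To set the amount of germ cell RNA aside, reads of each gene were divided by reads of Dppa3 in the same library. This was done after the values were seen, and it is a description with no test. The division does not set aside reads from cells without Dppa3. At E14, with Dppa3 at 0.0871 and 0 CPM, Tfap2c read 11.3 and 15 CPM, Nanos3 2.05 and 1.08, and Dazl 1.52 and 1.20. The other members read 0.697 CPM or less there. The part of such reads in the ratios was not tested. Dazl per Dppa3 read was 0.124 and 0.346 in the E11 pair and 0.926 and 1.5 in the E12 pair. Ddx4 per Dppa3 read was 0.0362 and 0.0698 in the E11 pair and 0.171 and 0.129 in the E12 pair. Both E12 libraries were above both E11 libraries for these late genes, a mean difference of 5.16 times for Dazl and 2.83 times for Ddx4, although Dppa3 itself differed 10.8 times between the E12 libraries. Dppa5a (0.845 and 0.889 in the E11 pair, 1.39 and 1.38 in the E12 pair) and Nanog (0.0643 and 0.120, then 0.152 and 0.152) were also higher at E12. Tfap2c was lower, at 0.316 and 0.30 in the E11 pair and 0.192 and 0.193 in the E12 pair. Pou5f1 (0.222 and 0.316, then 0.350 and 0.293), Dnd1 (0.201 and 0.253, then 0.226 and 0.175) and Nanos3 (0.262 and 0.105, then 0.0676 and 0.282) overlapped between the ages.

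With Pou5f1 as the divisor in place of Dppa3, Dazl was 0.556 and 1.10 in the E11 pair and 2.65 and 5.13 in the E12 pair, and Ddx4 was 0.163 and 0.221, then 0.489 and 0.441. The E12 libraries were again the higher ones for Dppa5a and Nanog and the lower ones for Tfap2c; Dnd1, which overlapped with Dppa3, was lower at E12 with this divisor. Mael, a piRNA pathway gene of the later germ line, had no read at E11 and was at 0.0693 and 0.0718 per Dppa3 read at E12. Utf1, a chromatin protein of pluripotent cells and also higher at E12 with either divisor, was per Dppa3 read at 0.171 and 0.384 in the E11 pair and 0.690 and 0.672 in the E12 pair. Tcl1 overlapped between the ages (0.236 and 0.241, then 0.198 and 0.299 per Dppa3 read). Fkbp6, Dppa4 and Tex19.1 were higher in both E12 libraries per Dppa3 read but overlapped per Pou5f1 read, and Asz1 was higher with both divisors (0.00494 and 0, then 0.0876 and 0.0287 per Dppa3 read).

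**Figure D5:**
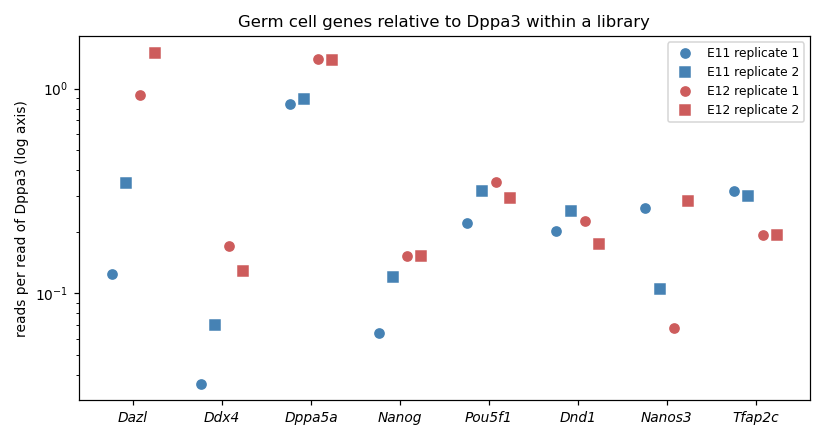
Reads of each gene per read of Dppa3 within a library (log axis), for the 4 libraries of E11 (blue) and E12 (red). Dazl, Ddx4, Dppa5a and Nanog are higher in both E12 libraries than in both of E11, Tfap2c is lower, and Pou5f1, Dnd1 and Nanos3 overlap.

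The 58 other germ cell genes come from lists drawn up with earlier results of these data known, and they are those of the 69 that passed the count filter. They were tested across ages with edgeR's quasi-likelihood test and Benjamini-Hochberg adjustment over all genes, with adjusted p under 0.05 as the call. Genes with no or few reads in some ages passed the filter only through the ages where they are high. For such genes the change and its p-value are no independent support. Between E11 and E16, 4 rose and 17 fell, where 29.6% of all tested genes rose and 26.2% fell. The median log2 fold change of the 58 was -1.29, or -1.19 with genes that had no read in an age set at their bound, against 0.05 for all genes. The fall was most marked in the pluripotency network: 9 of 14 fell, with a median of -6.28, or -3.29 with bounds. Among these 9, Dppa2, Dppa4, Esrrb and Tcl1 had 0 reads at E16 and Utf1 had 1. These genes passed the filter only through libraries of E11 and E12, so their calls add no support. The others were Sall4, Sox2, Lin28a and L1td1. Of the 17 piRNA and germ line genes 4 fell (median -0.95), of 19 meiosis genes 3 fell and 2 rose (median -1.07), and of 8 specification and surface genes 1 fell and 2 rose (median 0.52). Both E16 libraries carried the mesenchyme and macrophage RNA given above, with red cell markers at 1555 and 1669.9 CPM and endothelial markers at 96.2 and 90.1, and its part in these calls was not tested.

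In the pluripotency network, Tcl1, a cofactor of Akt signalling, read 5.37 and 11.1 CPM in the E11 pair, 25.9 and 3.63 in the E12 pair, and 0 from E14 on, so that E11 was at least 81.1-fold higher than E16 (edgeR adjusted p = 0.00623). Dppa4, a DNA-binding partner of Dppa2, read 4.02 and 6.98 CPM at E11 and 0 at E16, at least 54.1-fold higher (edgeR adjusted p = 0.00834). Utf1 read 3.91 and 17.7 CPM in the E11 pair, 90.4 and 8.16 in the E12 pair, and 0 and 0.0752 in the E16 pair; its pooled E11 to E16 ratio was 334, with a counting interval of 59.7 to 13199.6 (edgeR adjusted p = 0.00852). Esrrb, a nuclear receptor of pluripotent cells, read 1.39 and 0.844 CPM at E11 and 0 at E16, at least 11-fold higher (edgeR adjusted p = 0.0354). Like Dppa3 and Dppa5a, each of these 4 read 0.131 CPM or less in every library of E14 and E16. They passed the filter only through libraries of E11 and E12, so their fall is a description and the p-values add no support. By fitted fold change Esrrb ranks above Sall4, L1td1 and Lin28a, which fell by 7.28, 5.47 and 4.83 on the log2 scale, but its own bound is smaller than any of these. Sall4, L1td1 and Lin28a were named after their values were seen. Sall4 did not have the course of these 4: this transcription factor read 96.8 and 92.8 CPM in the E11 pair, 134 and 138 in the E12 pair, 88.0 and 85.8 in the E14 pair, and 0.801 and 0.376 in the E16 pair, with E12 libraries that were nearly equal.

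Among piRNA and germ line genes, Tex19.1, which restrains retrotransposons in germ cells, read 5.07 and 10.5 CPM in the E11 pair, 34.5 and 4.01 in the E12 pair, and 0 at E16, at least 76.5-fold lower than E11 (edgeR adjusted p = 0.00486). Fkbp6, a piRNA pathway cochaperone, read 4.66 and 3.54 CPM in the E11 pair, 34.8 and 5.23 in the E12 pair, and 0 at E16, at least 40.3-fold lower than E11 (edgeR adjusted p = 0.00834). Tex19.1 and Fkbp6 also passed the filter only through libraries of E11 and E12, so their fall is a description. Pld6, a mitochondrial enzyme of piRNA biogenesis, fell by 2.58 ± 0.46 (SE) on the log2 scale (edgeR adjusted p = 0.0023), from 7.06 and 11.4 to 1.36 and 1.73 CPM. Ddx25, a helicase, fell by 2.12 ± 0.32 (SE; edgeR adjusted p = 0.000958), from 19.2 and 22.9 to 4.13 and 5.57 CPM. Neither Pld6 nor Ddx25 differed 2-fold between the E12 libraries (7.55 and 8.71, and 14.5 and 12.7 CPM), unlike Tex19.1 and Fkbp6.

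Genes of meiosis, the division that female germ cells enter in the fetal ovary, mostly did not pass the test: 14 of the 19 were not called, and the 3 that fell and 2 that rose stand beside the 26.2% and 29.6% of all genes. Rec8, a meiotic cohesin, fell by 3.41 ± 0.83 (SE) from E11 to E16 (edgeR adjusted p = 0.0099), from 6.91 and 4.45 to 0.678 and 0.376 CPM. Smc1b, another meiotic cohesin, read 0.827 and 0.260 CPM at E11 and 0 at E16, at least 5.34-fold lower (edgeR adjusted p = 0.0317). Prdm9, which places meiotic recombination sites, rose by 2.05 ± 0.54 (SE; edgeR adjusted p = 0.0131), from 1.62 and 1.33 to 5.18 and 7.07 CPM. Tex11, an X-linked meiosis gene, had no read at E11 and 1.23 and 0.301 CPM at E16, at least 14.7-fold higher (edgeR adjusted p = 0.00702). Smc1b passed the filter only through libraries of E11 and E12, and Tex11 only through libraries after E11, so both changes are descriptions. Stra8, which opens meiosis, was at 0 in all hindgut libraries of E11, E12 and E14 and had 0.0616 CPM in 1 library of E16.

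Specification and surface genes are shared with gut and other cells. As a list they did not follow the 9 from E11 to E16, since 1 of 8 fell, 2 rose and 5 were not called. Between the E12 libraries, 4 of 8 were at least 2-fold higher in replicate 1. Prdm14, a specification gene, read 5.52 and 0.130 CPM in the E11 pair and 7.91 and 0.697 in the E12 pair. It read 0 and 0.249 in the E14 pair and 5.24 and 4.51 in the E16 pair. Kit, the receptor that guides and sustains germ cells, rose by 1.42 ± 0.11 (SE) from E11 to E16 (edgeR adjusted p = 3.27e-05), from 90.0 and 101 to 271 and 242 CPM. Fut4, whose enzyme makes the SSEA1 surface sugar, rose by 2.52 ± 0.27 (SE; edgeR adjusted p = 0.000188), from 13.2 and 9.84 to 60.2 and 71.2 CPM. Alpl, the alkaline phosphatase used to stain germ cells, fell by 2.30 ± 0.67 (SE; edgeR adjusted p = 0.0202), from 20.6 and 56.7 to 5.11 and 10.7 CPM. The ligand of Kit, Kitl, read 144 and 110.3 CPM in the E11 pair and 17.1 and 32.3 in the E12 pair.

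Between neighbouring ages the calls were fewer. From E11 to E12, 3 of the 58 were called, each of them a rise, where 1.76% of all genes rose and 0.874% fell: Prdm1, a repressor that specifies germ cells and also acts in gut epithelium, rose by 0.88 ± 0.10 (SE; edgeR adjusted p = 0.00923), Kit rose by 0.66 ± 0.10 (SE; edgeR adjusted p = 0.0232), and Tex11 went from no read to 1.85 and 1.25 CPM, at least 29.7-fold higher (edgeR adjusted p = 0.0486). Leaving out E12 replicate 2, or either E14 library, left 1 call. From E12 to E14, 7 genes of the pluripotency network fell. Among them, Dppa2, Gdf3 and Tcl1 had 0 reads at E14, Dppa4 had 2 and Utf1 had 4, so for these the calls add no support. In all, 15 of the 58 fell and 2 rose (13.9% and 14.4% of all genes), with a median of -1.66 against -0.02 for all genes. That count of 17 went to 11 without E12 replicate 1 and to 4 without either E14 library. From E14 to E16, 5 fell and 4 rose (19.0% and 20.6% of all genes); scaling by library size alone gave 6 and 1, RLE scaling gave 4 and 5, and leaving out a library of either age left 3 to 5 calls.

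Among the genes at 1 CPM or more, the 10 whose log2 CPM followed the mean of the members most closely over the 8 hindgut libraries included 3 listed germ cell genes, Utf1 (Pearson r = 0.986), Tex19.1 (0.977) and Dppa4 (0.974). The other 7, Rps4l, Hnrnpa1, Agpat4, Slbp, 9130401M01Rik, Ppan and Dnttip2 (0.972 to 0.984), spanned 0.592 to 2.15 on the log2 scale over the libraries, whereas Utf1, Tex19.1 and Dppa4 spanned 12.1, 10.7 and 10.5. Among the members, r over the 8 libraries lay between 0.817 and 0.989 for pairs without Tfap2c and between 0.481 and 0.689 for pairs with it. The 8 points share ages and libraries, and r is given as a description.

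A simple on-off rule, set after the values were seen, asked for at least 2 CPM in all 4 libraries of E11 and E12 and at most 0.5 CPM in all 4 of E14 and E16. It held 19 of the 24062 genes: the members Dppa3, Dppa5a and Pou5f1, the listed genes Dppa4, Fkbp6, Tcl1, Tex19.1 and Utf1, and 11 others. Of those 11, the homeobox genes Rhox6 and Rhox9, Foxh1 and Rbmxl2 had the E12 replicate ratio of the germ cell genes, at 11.1, 7.39, 6.53 and 12.2. Examples without it were Dkk1, Sall3 and Qrfpr, with ratios of 1.5, 1.1 and 0.374. Rhox6 and Rhox9, a pair known for expression in germ cells and placenta, read 6.91 and 18.9, and 11.2 and 27.0 CPM at E11, and had no read at E14 or E16.

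In adult colon, reads of the 9 genes summed to 0.722 to 4.31 CPM a library. Only Dazl, Nanos3 and Dnd1 passed the filter, and none of them was called by edgeR's quasi-likelihood test in any of the 3 adult comparisons, in which 0.331% of all genes (regenerating against wild type), 36.2% (Ascl2 KO against wild type) and 31.4% (Ascl2 KO against regenerating) were called. At an unadjusted p under 0.05 the counts were 0, 0 and 1, and DESeq2 also called 0. Dazl read 2.30 and 0.612 CPM in regenerating cells (77 and 19 reads), 0, 0 and 0.220 in wild type, and 0 and 0.0916 in the KO. Dazl passed the filter only through the regenerating libraries, so its order of groups is a description, and the difference from wild type did not pass (edgeR adjusted p = 0.512). Dnd1 had 33 and 10 reads in regenerating cells, 6, 25 and 4 in wild type and none in the KO (KO against wild type, edgeR adjusted p = 0.119; KO against regenerating, 0.0935). Nanos3 had 27 and 8 reads in regenerating cells, 23, 34 and 11 in wild type, and 2 and 25 in the KO, and these ranges overlapped. Nanog had 8 and 6 reads in the KO and at most 3 in any other adult library; Ddx4 had 3 and 4 reads in regenerating cells and none elsewhere. Dppa5a had no adult read, Dppa3 had 1, Pou5f1 had 2, and Tfap2c had at most 4 in a library.

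The single-cell library of day 8 regenerating cells has no replicate and enters no comparison. After a filter of at least 2000 UMIs (unique molecular identifiers, 1 per captured RNA) and at most 20% mitochondrial UMIs, 3359 cells remained with a median of 20846 UMIs. Nanog, Ddx4 and Tfap2c had 0 UMIs, which by the 3-count limit allows a share of up to 0.0893% of cells with a UMI (0.11% as an exact binomial bound), and Dppa3 and Dppa5a had 1 UMI each. Pou5f1 had a UMI in 129 cells, 3.84% (95% exact binomial interval 3.22 to 4.55), although the regenerating bulk libraries held 2 Pou5f1 reads in all. Dazl had a UMI in 56 cells, 1.67% (1.26 to 2.16), Nanos3 in 26, 0.774% (0.506 to 1.13), and Dnd1 in 20, 0.595% (0.364 to 0.918). Of 226 cells with a UMI of any member, 7 had UMIs of 2 or more members. Doublets were not called, and no cell type that should lack the genes was set beside them. As a measure of free RNA, barcodes under 100 UMIs held 5 of all 143 Pou5f1 UMIs, 6 of 70 for Dazl, 2 of 31 for Nanos3 and 1 of 22 for Dnd1, beside 7841 of 202493 for Epcam; its part in the shares of cells was not tested.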

How the data were processed

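The authors deposited 1 table of raw read counts per gene for 15 RNA libraries and, for the single-cell library, a matrix of UMI counts. The submitters' processing notes name STAR 2.5.3a, HTSeq, DESeq2 and Cell Ranger 3.0.2 and the build GRCm38; strand settings are not given in the sources used here. Rows that name no gene took 42.9% to 62.01% of the reads of a library and were left out. The members and all gene lists were chosen with earlier results of these data known.

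Counts were tested with edgeR 4.0.16 in R 4.3.3: filterByExpr by group, TMM scaling, the quasi-likelihood test and Benjamini-Hochberg adjustment over all genes tested (16481 in 8 hindgut libraries, 13911 in 7 adult libraries, each set in 1 fit, two-sided). DESeq2 1.42.0, other scalings and filters, a replicate block and each library left out were the alternatives. The script was tested on simulated counts. Levels between libraries use log2 CPM with a prior count of 0.5. Named genes were all members and, in each list of other germ cell genes, up to 4 with the largest change called between E11 and E16 without overlap and up to 2 called between E11 and E12; relatives of the members that passed the filter could also be named. Change was ranked by fitted log2 fold change, also for genes at 0 counts in an age. Boll, Nanos2, Mael, Stra8, Kitl, the marker genes given singly and all further names were chosen after their values were seen. Genes named by likeness to the members had the highest Pearson r. Promoter sequences are from RefSeq.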

Additional observations from a re-analysis of the deposited data

Results flagged for a closer look

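In the single-cell library of day 8 regenerating cells, which enters no comparison, 4 of the germ cell genes had more UMIs than the limit that a count of 0 allows (3 UMIs). Pou5f1 had 134 UMIs in the 3359 cells, although the regenerating bulk libraries held 2 Pou5f1 reads in all. By name the annotation holds 5 copies of Pou5f1, and their part in these UMIs was not tested. Dazl had 61 UMIs. Nanos3 had 27 UMIs. Dnd1 had 20 UMIs.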

How the results depend on the processing

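The differences of the 9 genes between E11 and E16 kept their sign with both other scalings, the other prior count and each library of these ages left out. This is no support for the differences, since the genes were selected as high in the young ages. Every E11 library was above every E16 library in all 9, so leaving out a library or changing the prior count could not turn a sign. The balance of calls did not always hold: for E16 against E14 it was 4 up and 5 down, but 5 up and 4 down with RLE scaling and 7 up and 6 down without E12 replicate 2, and for E12 against E11 it was 1 up and 1 down without E12 replicate 1, in place of 3 up. With DESeq2, 7 other germ cell genes were called in place of 3 for E12 against E11. The count was 28 in place of 17 for E14 against E12, and 17 in place of 9 for E16 against E14. DESeq2 also called more of all 16481 genes, with 2431 in place of 434, 6610 in place of 4672 and 7936 in place of 6530. The cause was not tested. With each library left out in turn, the counts ranged from 1 to 2 for E12 against E11, 4 to 22 for E14 against E12, 3 to 13 for E16 against E14 and 16 to 28 for E16 against E11, where an age with 1 library left is assumed to vary like the others. The members called in adult colon numbered 0 under every alternative. The same replicate number did not pair libraries: deviations of same-numbered hindgut libraries correlated between -0.03 and 0.04, and those of adult libraries between 0.01 and 0.11. A replicate block gave 2, 15, 6 and 19 calls in the order of comparisons above, and 0 in each adult comparison. Of all 16481 hindgut genes, the block called 266, 4012, 5696 and 8429 in the same order. The difference between E11 and E16 for genes at 0 depends on the prior count: with 2 in place of 0.5 it was 8.59 in place of 10.6 (log2) for Dppa3, 8.39 in place of 10.4 for Dppa5a and 6.69 in place of 8.68 for Pou5f1. With 2 libraries an age, levels under about 1 CPM rest on few reads.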

Other observations

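Within the single-cell library, Dazl UMIs were set beside Reg4, a gene of deep crypt secretory cells; this was done after the values were seen, with no test, and the intervals cover counting error in this 1 library only. In the day 8 single cells, 55 of 2251 cells with a Reg4 UMI had a Dazl UMI, 2.44% (95% exact binomial interval 1.85 to 3.17), against 1 of 1108 cells without a Reg4 UMI, 0.0903% (0.00228 to 0.502). The median depth was 20449 UMIs in the first set and 21528.5 in the second. The Dazl count of each cell was then thinned by 1 random draw to a depth of 10000 UMIs, while the split by Reg4 stayed at full depth. This left out 204 and 89 shallower cells. Dazl was seen in 21 of 2047 cells with Reg4, 1.03% (0.636 to 1.56), and in 0 of 1019 without. By the 3-count limit, 0 allows a share of up to 0.294% (0.361% as an exact binomial bound). Reg4 had a UMI in 67.0% of all cells and 9651 UMIs in barcodes under 100 UMIs, so a single Reg4 UMI can come from free RNA, and its part in the split was not tested. Reg4 itself read 9192 and 14317 CPM in the regenerating bulk libraries, where Dazl had 77 and 19 reads, 342 to 704 in wild type and 1371 and 3145 in the KO. Of the bulk regenerating libraries, the one with more Reg4 had less Dazl, 0.612 against 2.30 CPM. The KO, with more Reg4 than wild type, had 0 and 0.0916 CPM of Dazl, and wild type had 0, 0 and 0.220. Bulk levels cannot show whether the same cells hold both RNAs.

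Further genes known from germ cells were also highest in E12 replicate 1 among the libraries of E11 and E12. They were chosen after their values were seen, so this likeness to the members was part of the choice. Dmrt1, a transcription factor of gonadal germ cells, read 0.263 and 2.53 CPM at E11 and 7.66 and 1.08 at E12. Sohlh2, a germ line transcription factor, read 2.48 and 2.01 CPM at E11 and 13.4 and 1.74 at E12, with no read at E14 or E16. Trap1a, an X-linked gene, read 5.75 and 8.60 CPM at E11 and 21.6 and 1.71 at E12, also with no read at E14 or E16.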
